A study of Homo sapiens with 2 samples.

Results

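The genes described are the 33 human genes that encode WNT ligands and their cell surface receptors: 19 ligands, 10 Frizzled receptors, the co-receptors LRP5 and LRP6, and the receptors ROR2 and RYK. They were chosen by symbol, and all 33 were found among the 19974 protein-coding genes of the autosomes and chromosome X. Open chromatin was profiled by ATAC-seq, in which a transposase cuts accessible DNA and leaves sequencing adapters at the cut, with an enzyme the submitters had purified themselves. J76 is a T-lymphoblastic leukemia line, a Jurkat derivative that lacks the T cell receptor chains, and 293T, named T293 on its sample, is an adherent embryonic kidney line that carries the SV40 large T antigen. The labels name no treatment, and each line was represented by 1 library made with 50000 growing cells in a reaction. With 1 library per line no difference has a replicate check, no p-value was computed, and the line cannot be told apart from its library.

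WNT proteins are secreted, lipid-modified ligands that bind Frizzled receptors, which cross the membrane several times. Together with LRP5 or LRP6, a bound Frizzled receptor stops the destruction of β-catenin, which then acts with TCF and LEF factors in the nucleus. Other ligands, with ROR2 or RYK at the surface, act on cell polarity and movement. WNT signals take part in kidney formation and in the growth of T cell precursors in the thymus.

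In J76 the authors called 59631 peaks, 58730 of them on the autosomes and chromosome X, and in 293T they called 85597, of which 84951 were on those chromosomes. The lists give no read counts, so depth is unknown, the 293T list is the longer, and a missing peak does not show that a site was closed. Positions are given on GRCh38, which the contig names of the lists match, since the sources used here do not state the build. The fold and −log10 q printed with a peak are the authors' own values, and they rank or filter peaks only within a list. Most marker genes went with the labels. Of 12 T cell genes, 9 had a peak at a gene end in the J76 list alone, 2 in both lines, 0 in 293T only, and CD5 in neither. Of 12 genes of embryonic kidney, epithelial or adherent cells, 10 had one in 293T only, PAX2 in J76 only, and PAX8 in neither. Among markers of other cells, BANK1 alone of 6 B cell genes had a peak, in J76 only. Of 6 myeloid genes, 3 had a peak in 293T only and 3 in neither line, and of 6 fibroblast and endothelial genes 2 had one in both, TEK in 293T only and 3 in neither.

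Sequences of 8 promoters are shown first, because the results turn on which line had a peak over them. Each is the 250 bases before the transcription start, from RefSeq on GRCh38.p14, 5′ to 3′ on the gene's strand, with every CpG dinucleotide in capitals. The 8 were chosen after their values were seen. The first 3 had a peak at the start in J76 only: WNT1 (chr12:48978072-48978321, plus strand), WNT3 (chr17:46818693-46818942, minus strand) and WNT10A (chr2:218880602-218880851, plus strand).
WNT1: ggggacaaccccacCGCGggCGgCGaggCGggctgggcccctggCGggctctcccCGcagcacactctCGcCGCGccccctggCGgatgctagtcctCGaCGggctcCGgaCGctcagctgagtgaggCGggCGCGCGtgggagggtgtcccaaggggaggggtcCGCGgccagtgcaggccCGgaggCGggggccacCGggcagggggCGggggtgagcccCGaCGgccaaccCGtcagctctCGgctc
WNT3: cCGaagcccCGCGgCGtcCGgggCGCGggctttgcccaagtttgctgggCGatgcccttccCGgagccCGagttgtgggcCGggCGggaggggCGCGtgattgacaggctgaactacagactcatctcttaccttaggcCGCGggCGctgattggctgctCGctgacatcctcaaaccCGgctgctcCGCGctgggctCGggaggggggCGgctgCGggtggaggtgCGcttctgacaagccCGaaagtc
WNT10A: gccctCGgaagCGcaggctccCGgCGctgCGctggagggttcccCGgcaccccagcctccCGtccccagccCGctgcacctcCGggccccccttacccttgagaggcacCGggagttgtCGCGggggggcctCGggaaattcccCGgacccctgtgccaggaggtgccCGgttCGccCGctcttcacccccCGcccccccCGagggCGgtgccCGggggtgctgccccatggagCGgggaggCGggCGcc
The next had a peak in 293T only: WNT2 (chr7:117323059-117323308, minus strand) and WNT3A (chr1:228006748-228006997, plus strand).
WNT2: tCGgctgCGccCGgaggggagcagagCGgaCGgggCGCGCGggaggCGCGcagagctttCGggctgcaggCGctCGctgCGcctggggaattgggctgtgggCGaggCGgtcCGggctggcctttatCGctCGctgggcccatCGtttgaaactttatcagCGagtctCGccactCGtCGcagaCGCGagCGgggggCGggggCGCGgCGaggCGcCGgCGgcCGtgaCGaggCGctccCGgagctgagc
WNT3A: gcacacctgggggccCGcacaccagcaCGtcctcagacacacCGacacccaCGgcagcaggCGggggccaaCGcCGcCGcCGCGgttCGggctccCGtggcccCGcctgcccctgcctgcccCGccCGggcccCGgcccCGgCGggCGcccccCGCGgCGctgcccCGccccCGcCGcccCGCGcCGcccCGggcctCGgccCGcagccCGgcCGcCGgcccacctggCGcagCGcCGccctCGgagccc
WNT8B (chr10:100462759-100463008, plus strand) had a peak at its start in neither line.
WNT8B: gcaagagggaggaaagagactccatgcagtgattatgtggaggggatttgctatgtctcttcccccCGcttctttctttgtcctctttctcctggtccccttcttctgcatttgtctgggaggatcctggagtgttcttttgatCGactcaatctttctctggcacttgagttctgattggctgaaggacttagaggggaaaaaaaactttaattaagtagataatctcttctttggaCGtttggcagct
Both lines had a peak over the promoters of the receptor genes FZD1 (chr7:91264183-91264432, plus strand) and FZD9 (chr7:73433528-73433777, plus strand).
FZD1: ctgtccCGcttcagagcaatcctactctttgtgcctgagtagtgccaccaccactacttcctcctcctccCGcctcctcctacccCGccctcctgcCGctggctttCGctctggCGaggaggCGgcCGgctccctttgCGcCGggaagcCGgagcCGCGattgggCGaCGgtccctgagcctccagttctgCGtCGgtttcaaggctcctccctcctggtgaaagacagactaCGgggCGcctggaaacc
FZD9: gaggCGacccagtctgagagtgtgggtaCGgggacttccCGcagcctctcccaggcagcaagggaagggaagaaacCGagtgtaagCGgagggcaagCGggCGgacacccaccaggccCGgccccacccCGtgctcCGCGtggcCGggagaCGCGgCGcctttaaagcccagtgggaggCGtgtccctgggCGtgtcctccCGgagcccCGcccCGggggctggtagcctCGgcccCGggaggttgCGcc
The WNT1 sequence held 29 CpG and 78.4% G or C, and J76 peaks covered 215 of its 250 bases, against 0 in 293T. For WNT3, with 26 CpG, J76 covered 230 bases and 293T 0, and for WNT10A, with 24 CpG, J76 covered 163 and 293T 0. WNT2 and WNT3A held 38 CpG each, and in both promoters J76 covered 0 bases and 293T all 250. WNT8B held 3 CpG and 45.2% G or C, with 0 bases covered in either line. FZD1 held 19 CpG and FZD9 23, and both lines covered all 250 bases of each.

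A peak counted as lying at a gene end when it reached into the 1 kb before or after the leftmost or rightmost base of the gene. Receptor genes were called in both lines throughout, and ligand genes were split. All 14 receptor genes had such a peak in both lines (100%, 95% Wilson interval 78.5 to 100), as did 60.7% of all protein-coding genes. Of the 19 ligand genes, 8 had one in both lines (42.1%, 23.1 to 63.7). Another 2 ligands, WNT1 and WNT3, had one in J76 only (10.5%, 2.94 to 31.4), where the background was 3.94%. WNT2, WNT3A, WNT5A and WNT11 had one in 293T only (21.1%, 8.51 to 43.3), against a background of 9.09%. The last 5, WNT5B, WNT7B, WNT8A, WNT9B and WNT16, had one in neither (26.3%), which equals the 26.3% of all genes. The intervals cover counting error only. At gene ends those of the ligand shares all hold the background value. That of the receptors lies above it, but this background is not matched for CpG content. Another protein-coding gene ended within 2 kb of WNT6, WNT10A and FZD8 alone among the members.

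**Figure D1:**
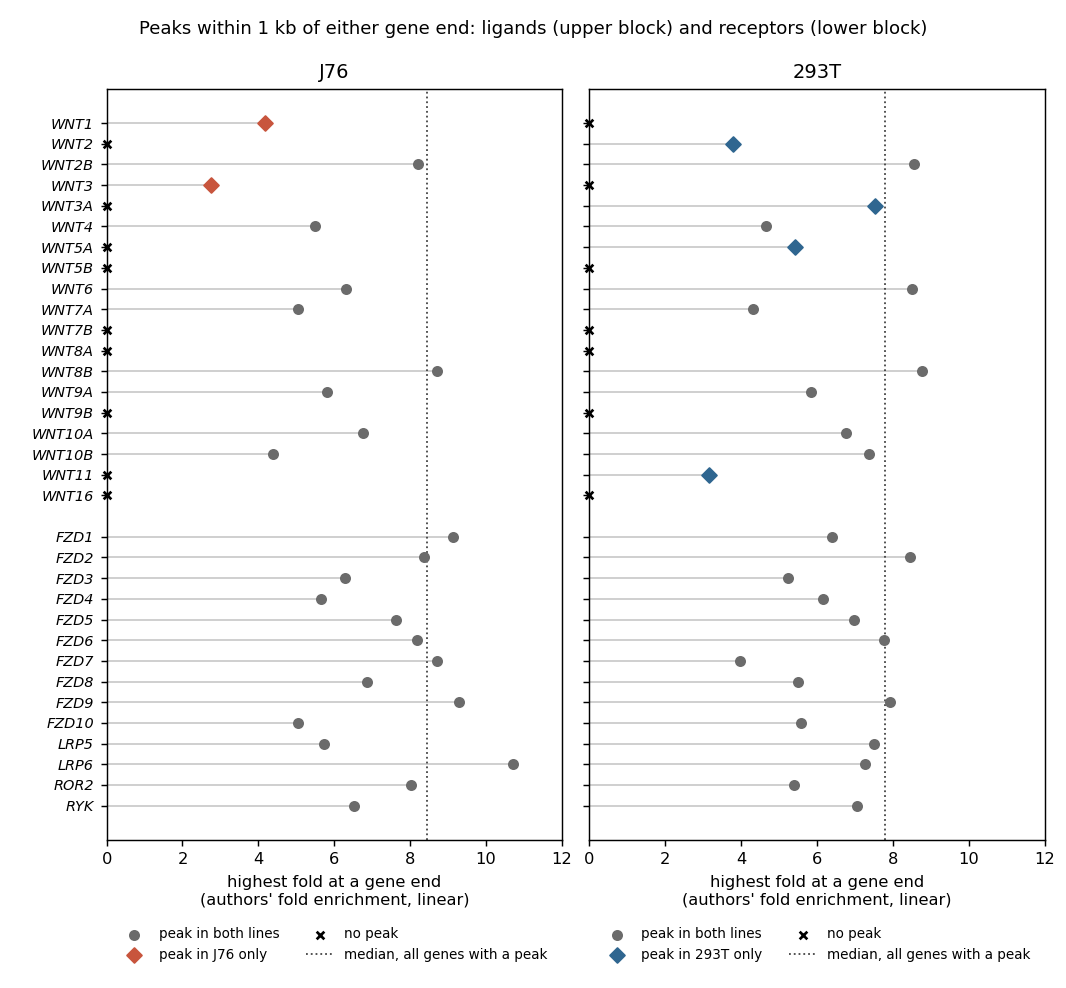
The highest authors' fold enrichment (linear, horizontal axis) of a peak within 1 kb of either gene end is plotted for each member, J76 left and 293T right, with crosses for members without a peak and a dotted line at the median of all genes with one (8.45 in J76, 7.79 in 293T). All 14 receptors have a point in both panels, while 2 ligands have one in the J76 panel alone, 4 in the 293T panel alone and 5 have a cross in both.

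For 24 members the promoter table gives strand and transcription start, so the start could be told apart from the other end. WNT7B, WNT10B, WNT11, FZD2, FZD3, FZD6, FZD7, FZD10 and LRP6 had no entry. The start differed from the outer gene end in 6 members, WNT5A, WNT8A, WNT9B, WNT10A, WNT16 and LRP5, whose genes reach beyond it. Of 16 ligands, 6 had a peak within 1 kb of the start in both lines (WNT2B, WNT4, WNT5A, WNT6, WNT7A and WNT9A, 37.5%, 95% Wilson interval 18.5 to 61.4), where 61.1% of all 15812 genes with an entry did. WNT1, WNT3 and WNT10A had one in J76 only (18.75%, 6.59 to 43.0, background 3.45%). WNT2, WNT3A, WNT9B and WNT16 had one in 293T only (25%, 10.2 to 49.5, background 8.46%), and WNT5B, WNT8A and WNT8B in neither (18.75%, background 27%). The intervals of both 1-line shares lie above the background at starts, unlike those at gene ends, but rest on 3 and 4 genes. Among these are weak peaks at WNT3 and WNT2, and the WNT16 call was lost with a window of 500 bp. The intervals take genes as independent, although some are neighbours, and members were chosen with earlier results of these data known. They are a description and not a test against the background. All 8 receptors with an entry had a start peak in both lines (100%, 67.6 to 100). At the start, 7 of 16 ligands were thus called in 1 line only, and 0 of 8 receptors were.

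The 3 ligands with a start peak in J76 only differed in how strong that peak was. WNT1, a ligand of the β-catenin branch that patterns the midbrain and was found as a mouse mammary oncogene, had a J76 peak at chr12:48977984-48978286 with fold 4.17 and −log10 q 20.01. Its summit lay 202 bp before the start, and the nearest 293T peak was 6307 bp away. J76 also had 3 peaks inside this short gene, 1 of which, at chr12:48981036-48981683 with fold 3.50, reached the window of the downstream end. WNT10A, known for its part in tooth and hair development, had a J76 peak at chr2:218880019-218880764 with fold 6.19 and −log10 q 35.8, and the nearest 293T peak was 2597 bp from the start. At its downstream end both lines had a peak, of fold 6.76 in J76 and 6.75 in 293T, so the gene counts as shared at gene ends and as J76-only at its start. WNT3, needed for the body axis of the mouse embryo, had only a weak J76 peak at chr17:46818698-46818927, of fold 2.76 and −log10 q 3.10, and it was lost at a −log10 q of at least 5.

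In 293T only, the start of WNT3A, the ligand most used to stimulate the β-catenin branch in culture, lay under a peak at chr1:228006553-228007440 with fold 3.80 and −log10 q 11.7. The nearest J76 peak was 7315 bp away. The stronger 293T peak of WNT3A was at the other end, at chr1:228059392-228060805 with fold 7.54 and −log10 q 75.2. It overlapped a J76 peak of fold 6.12 that stopped 43 bp short of the window, so only the start peak set the lines apart. WNT2, a ligand of lung development, had a 293T peak at chr7:117322738-117323532 with fold 3.78 and −log10 q 6.13, whose summit lay 31 bp from the start, and which a −log10 q threshold of 10 removed. The nearest J76 peak was 62680 bp from that start.

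WNT9B and WNT11 are ligands of the developing kidney: in the mouse, WNT9B from the ureteric bud induces nephron formation, and WNT11 marks the bud tips. WNT9B had a 293T peak at chr17:46851303-46852428 with fold 7.17 and −log10 q 20.8, its summit 23 bp before the start, and its nearest J76 peak was 15450 bp from the start. That start lies 18394 bp inside the outer end of the gene, so the peak is missed by the gene-end count. WNT11 had a 293T peak at chr11:76210536-76210880 with fold 3.16 and −log10 q 13.1, and the nearest J76 peak was 1340 bp from that end. WNT16, a ligand known in bone, had a 293T peak at chr7:121329735-121330893 with fold 5.15 that began 735 bp past the start, inside the gene, while the nearest J76 peak was 14421 bp from that start. This start call was lost with a window of 500 bp and when the summit had to lie inside the window. WNT5A, the best known ligand of the polarity branch, had a 293T peak at the outer end of the gene, at chr3:55505125-55505386 with fold 5.42 and −log10 q 10.8. At its annotated start, 17957 bp further in, J76 had 1 peak of fold 3.09 and −log10 q 4.29, at chr3:55488008-55488316, and 293T had 4, the strongest at chr3:55487453-55487697 with fold 3.55 and −log10 q 21.2. A stronger J76 peak, at chr3:55488398-55488947 with fold 5.45 and −log10 q 16.3, lay just outside the 1 kb window. Its summit was 1249 bp before the start. With weaker peaks left out (−log10 q under 5), the WNT5A start was called in 293T only within that window.

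**Figure D2:**
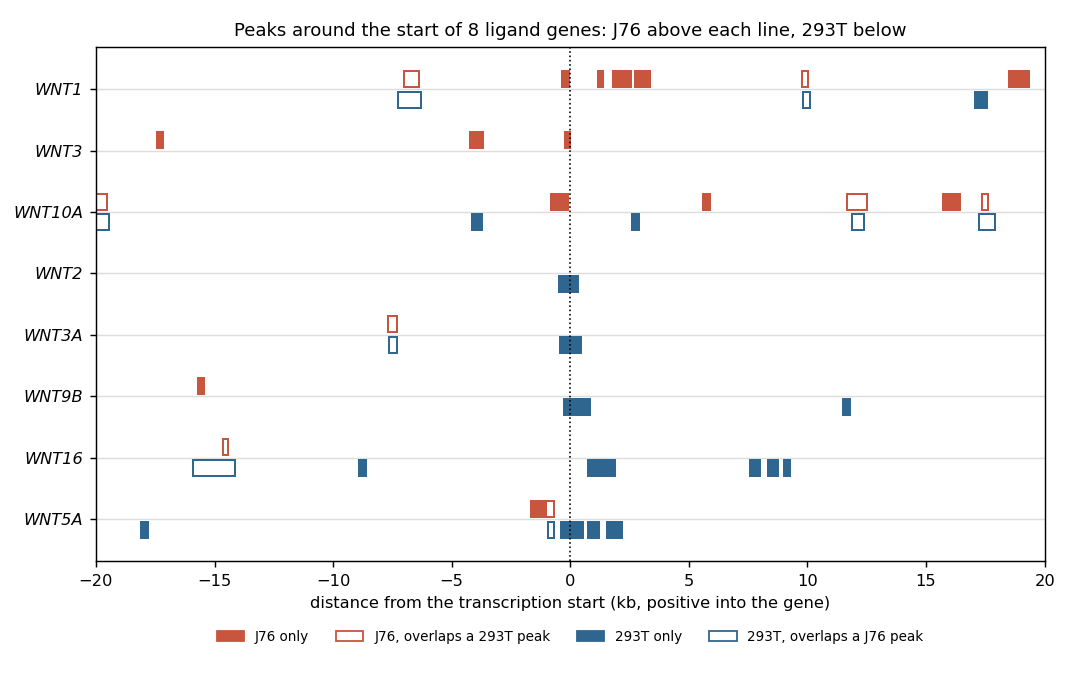
Peaks within 20 kb of the transcription start of 8 ligand genes are drawn to scale (distance in kb, positive into the gene), J76 above and 293T below each line, filled where the peak overlaps none of the other line. WNT1, WNT3 and WNT10A show a filled J76 box at the start, WNT2, WNT3A and WNT9B a filled 293T box there, WNT16 a filled 293T box just inside the gene, and WNT5A peaks of both lines.

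Ligands with a gene-end peak in both lines were led by WNT8B, a ligand of the forebrain, with fold 8.72 in J76 (chr10:100481536-100482910) and 8.76 in 293T (chr10:100481534-100482921). These lie at its downstream end, and the peak nearest to the start was 7945 bp away in J76 and 18525 bp away in 293T. WNT2B had fold 8.21 in J76 (chr1:112465965-112466586) and 8.57 in 293T (chr1:112465737-112466612), both over the start. WNT6 had fold 6.30 in J76 (chr2:218860735-218861300) and 8.49 in 293T (chr2:218860698-218861396), beside a weaker peak over the start itself. WNT10B, which favours bone over fat formation in mice, had fold 4.38 in J76 (chr12:48971296-48971928) and 7.38 in 293T (chr12:48971046-48972015). The other shared ligands were WNT10A, given above, WNT9A with fold 5.81 in J76 and 5.84 in 293T, WNT4 with 5.48 in J76 and 4.66 in 293T, and WNT7A with 5.05 in J76 and 4.31 in 293T. The WNT4 peaks covered the start in both lines, whereas the J76 peak of WNT7A lay 490 bp before it.

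Members just inside and just outside the 1 kb window show how the counts depend on it. Just inside were the J76 peak 937 bp from the downstream end of WNT1, the WNT8B peaks at 834 bp in J76 and 823 bp in 293T, and the WNT10A peaks at 569 bp in J76 and 706 bp in 293T. Just outside were the J76 peak 1043 bp from the end of WNT3A, the 293T peak 1176 bp from the downstream end of WNT2, the J76 peak of WNT11 at 1340 bp, and peaks of both lines near WNT7B, at 1454 bp in J76 and 1415 bp in 293T. WNT5B and WNT8A had no peak within 5 kb of either end in J76 or 293T, the nearest being 5646 bp from WNT5B in J76 and 10772 bp in 293T, and 6728 bp from WNT8A in J76 and 8276 bp in 293T.

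Each of the 10 Frizzled genes had a gene-end peak above the median fold of all peaks in its list, 4.83 in J76 and 4.38 in 293T, apart from FZD7 in 293T. FZD9 had fold 9.29 in J76 (chr7:73433434-73434056) and 7.93 in 293T (chr7:73433508-73434274), with summits 57 bp before the start in J76 and 50 bp before it in 293T. FZD1 had fold 9.12 and −log10 q 116 in J76 (chr7:91263507-91265124), and fold 6.39 and −log10 q 85.0 in 293T (chr7:91263415-91265508). Every base of the FZD1 and FZD9 promoter sequences lay inside these peaks. FZD7 had fold 8.70 in J76 (chr2:202032871-202034597) and 3.98 in 293T (chr2:202032890-202036422), where the peak was the widest at any member's gene end, 3533 bp. FZD2 had fold 8.35 in J76 (chr17:44556978-44557791) and 8.46 in 293T (chr17:44556488-44557877).

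The other 6 Frizzled genes were called in both lines as well. In J76 the folds were 8.19 for FZD6, 7.62 for FZD5, 6.87 for FZD8, 6.29 for FZD3, 5.65 for FZD4 and 5.03 for FZD10. In 293T they were 7.78 for FZD6, 6.99 for FZD5, 5.50 for FZD8, 5.22 for FZD3, 6.15 for FZD4 and 5.57 for FZD10. FZD10 had the lowest −log10 q of the Frizzled genes in J76, 10.9, and 38.6 in 293T. Frizzled folds in J76 thus ran between 5.03 and 9.29 and in 293T between 3.98 and 8.46.

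The co-receptors LRP5 and LRP6, which make a bound Frizzled receptor signal through β-catenin, were called in both lines as well. LRP6 had the highest gene-end fold of any member in J76, 10.7 at chr12:12266538-12267586, and 7.26 in 293T at chr12:12265599-12267563. LRP5 had peaks at its outer end, of fold 5.72 in J76 (chr11:68297701-68298056) and 7.51 in 293T (chr11:68297680-68298056), and others at its start 14179 bp further in. The start peaks had fold 6.78 in J76 and 3.84 in 293T. ROR2, a receptor tyrosine kinase family member that binds WNT5A, had fold 8.02 in J76 (chr9:91950096-91950693) and 5.41 in 293T (chr9:91948249-91950632). RYK, a kinase-like receptor without catalytic activity, had fold 6.52 in J76 (chr3:134249967-134251139) and 7.06 in 293T (chr3:134250042-134251230).

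Peak strength was compared within each list. Each member with a gene-end peak gave its highest fold, highest −log10 q and greatest width there, not always from the same peak. The comparison is a description of the members called and not of all members. In J76 the median fold was 7.82 at 14 receptors and 5.64 at 10 ligands, beside 8.45 over all genes with a peak. In 293T it was 6.69 at 14 receptors and 6.30 at 12 ligands, beside 7.79 over all genes, and the 10 Frizzled genes alone had 6.27, about that of the ligands. The median −log10 q in J76 was 59.6 for receptors, 21.3 for ligands and 62.9 for all genes, and in 293T it was 54.2 for receptors, 23.1 for ligands and 56.6 for all genes. Median widths were 1115.5 bp for receptors, 627.5 bp for ligands and 1072 bp for all genes in J76, and in 293T 1789.5 bp for receptors, 925.5 bp for ligands and 1210 bp for all genes. For summits, the start peak of highest fold was taken for each gene, which need not be the nearest. These lay closer to the start in receptors, at a median of 103 bp in J76 and 78 bp in 293T (8 genes each), than in ligands, at 247 bp in J76 (9 genes) and 175.5 bp in 293T (10 genes). For WNT6 they lay at 1298 bp in J76 and 1265 bp in 293T, although weaker peaks had summits at 114 bp and 52 bp.

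CpG content of the promoter is a feature that the choice of genes did not use. The 250 bases before the start held a median of 27.5 CpG in 16 ligands (range 3 to 44) and 31 in 8 receptors (19 to 43), with 17 over all 15812 genes (interquartile range 6 to 26). Among all genes with 20 or more CpG, the start peak was in both lists for 86.4%, in that of J76 alone for 1.55%, in that of 293T alone for 7.01% and in neither for 5.04%. All 7 receptors of this class had one in both lines, and the start interval of all 8 receptors (67.6 to 100) holds the 86.4%. Of the 10 ligands of this class 4 did, WNT1, WNT3 and WNT10A had one in J76 only, WNT2, WNT3A and WNT9B in 293T only, and 0 in neither. Among all genes with 10 to 19 CpG, the same shares were 72.9% for both lists, 3.08% for J76 alone, 9.8% for 293T alone and 14.2% for neither. The 5 members of this class were WNT2B, WNT5A and FZD1, with a peak in both, WNT16, in 293T only, and WNT5B, in neither. Among all genes with under 5 CpG, they were 8.53% for both lists, 5.41% for J76 alone, 7.69% for 293T alone and 78.4% for neither, and WNT8A with 4 CpG and WNT8B with 3 were of the last kind. The letters CTTTGAT and CTTTGAA, which TCF and LEF factors bind, were looked for on both strands. They occurred in 0 of the 16 ligand and 0 of the 8 receptor promoters, and in 4.91% of all promoters of that length.

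**Figure D3:**
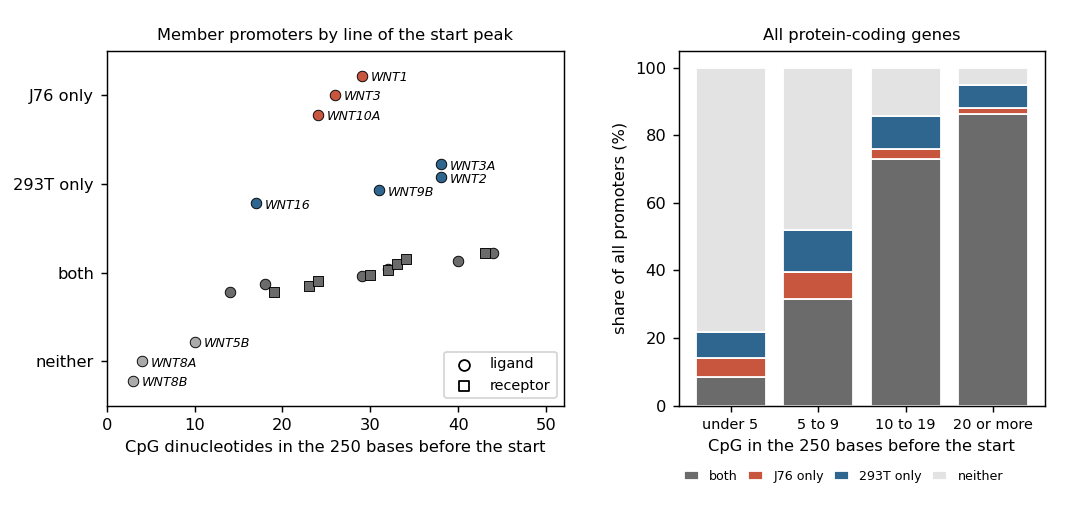
Left, the number of CpG dinucleotides in the 250 bases before the start is plotted for 16 ligands (circles) and 8 receptors (squares), by the line that had a start peak; right, the bars give the share of all 15812 genes in each CpG class (%). WNT1, WNT3, WNT10A, WNT2, WNT3A and WNT9B have 20 or more CpG, the class in which 86.4% of all genes had a start peak in both lines.

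Several ligand genes lie side by side, and neighbours differed. On chromosome 12, WNT1 had a gene-end peak in J76 only while WNT10B next to it had one in both lines. On chromosome 17, WNT3 had a start peak in J76 only and WNT9B in 293T only. On chromosome 1, WNT3A had a start peak in 293T only and WNT9A in both lines, and on chromosome 2 WNT10A had one in J76 only and WNT6 in both. The pairs share distal peaks, so totals over several genes are of distinct peaks, and a shared peak counts for each gene where genes are taken singly.

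A distal peak had its summit over 1 kb from every protein-coding gene end, and was counted if it lay within 50 kb of a member or inside it. It was line-only if it overlapped no peak of the other line. Near ligands there were 32 J76-only and 54 293T-only distal peaks, so that 37.2% were of J76 (95% Wilson interval 27.7 to 47.8). Near receptors there were 26 J76-only and 57 293T-only (31.3%, 22.4 to 41.9). Over the genome, 26678 distal peaks were J76-only and 51392 were 293T-only, a J76 share of 34.2%, and both intervals hold that value. A distal peak near a member need not act on it, and the nearest protein-coding gene was often another. It was a member for 20 of the 32 J76-only and 35 of the 54 293T-only peaks near ligands. Near receptors it was a member for 14 of 26 and 37 of 57. With lists of equal length, 58730 peaks each, ligands had 34 J76-only and 35 293T-only distal peaks, and receptors had 28 of each. Over the genome these lists held 28765 J76-only and 28440 293T-only distal peaks, a J76 share of 50.3%, so the near-even counts of the members were those of the lists as a whole. By gene, 9 of 33 members had more J76-only distal peaks (background 6057 of 19974 genes, 30.3%). More 293T-only peaks were found for 22 (background 9955 of 19974, 49.8%), and 2 had equal numbers. Neighbours that share a peak each count it here.

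Single genes leaned in both directions. An excess of at least 3 J76-only distal peaks was found near 5 of 33 members (15.2%, background 8.78%), and an excess of at least 3 293T-only peaks near 15 (45.5%, background 23.9%). Both shares lie above the background, but members had more line-only distal peaks of either line. Their mean was 2.03 J76-only and 3.70 293T-only, against 1.71 and 2.88 over all genes. The background of these gene counts was not matched for gene length or peak number. Equal list length shortened the 293T list alone, so J76-only counts could only rise and 293T-only counts could only fall. The 5 members on the J76 side therefore had to keep an excess of at least 3. Of the 15 on the 293T side, 4 kept one: WNT16, FZD4, FZD5 and WNT5A. WNT3A, FZD3, LRP6 and RYK then had equal numbers in both lines. Other settings could lower the excess on either side. At a −log10 q of at least 5, it stayed at 3 or more in 2 of the 5 and 7 of the 15. At a −log10 q of at least 10 it did so in 3 and 8, and within 25 kb also in 3 and 8.

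On the J76 side, WNT10B had 6 J76-only and 1 293T-only distal peaks, the strongest in J76 at chr12:48924611-48925729 with fold 7.52, nearest to FKBP11. WNT8B had 4 J76-only and 0 293T-only, led by chr10:100454688-100455064 with fold 8.56 and −log10 q 23.6. WNT1 had 4 J76-only and 1 293T-only, of which 3 in J76 lay inside the gene. The strongest, at chr12:48996802-48997648 with fold 4.61, was nearest to DDN. All of these WNT1 peaks also count for WNT10B, so the excesses of these neighbours rest largely on the same peaks. Of the 6 J76-only peaks counted for WNT10B, 0 were nearest to it. FZD6 had 5 J76-only and 2 293T-only, led by a J76 peak of fold 6.01 beyond the gene. LRP5 had 4 J76-only and 1 293T-only, led by a J76 peak of fold 3.67 inside the gene at chr11:68380640-68380868.

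On the 293T side, WNT16 stood first with 0 J76-only and 10 293T-only distal peaks, 4 of them inside the gene. Its strongest is the peak just past the start described above, which counts as distal because the outer gene end lies further out. FZD4, a receptor known for retinal vessel growth, had 1 J76-only and 8 293T-only, led by chr11:86940010-86940895 with fold 6.50. That peak was nearest to PRSS23, and 2 of the 8 were nearest to FZD4. RYK had 1 J76-only and 7 293T-only, an excess that was lost with lists of equal length, led by chr3:134300586-134300829 with fold 3.86. WNT2 had 1 J76-only and 5 293T-only, led by chr7:117270389-117270756 with fold 5.45 and −log10 q 25.01, past its downstream end. WNT5A had 1 J76-only and 4 293T-only, led by chr3:55485134-55485772 with fold 3.79. These 4 lie inside the gene, and 3 of them are start peaks already counted above.

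WNT6 and WNT10A share a 293T-only distal peak at chr2:218908715-218909581, 15.2 kb past the end of WNT10A, with fold 12.7 and −log10 q 103. It ranked 46 by fold among the 51392 distal 293T-only peaks and had the highest fold of the distal line-only peaks near members in either list. Each of these genes had 3 J76-only and 6 293T-only distal peaks. The strongest of the J76-only peaks, at chr2:218880019-218880764, is the WNT10A start peak already given above.

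The others on the 293T side were led by peaks of lower fold. WNT3A and WNT9A each had 1 J76-only and 5 293T-only peaks, led by chr1:228036784-228037103 with fold 3.66 and by chr1:227946639-227947291 with fold 4.32. The last of these also counts as a peak at the WNT9A start. WNT5B had 2 J76-only and 6 293T-only, led by chr12:1575459-1576843 with fold 6.70, nearest to FBXL14. FZD7 had 1 J76-only and 5 293T-only, led by chr2:202083792-202084726 with fold 7.69, nearest to KIAA2012. FZD3 had 2 J76-only and 5 293T-only, led by a peak of fold 7.87, nearest to FBXO16. LRP6 had 1 J76-only and 5 293T-only, led by chr12:12230943-12231218 with fold 3.77. FZD1 and FZD5 each had 0 J76-only and 4 293T-only, led by chr7:91286491-91286740 with fold 5.15 and chr2:207796562-207797432 with fold 5.06. The latter was nearest to PLEKHM3, and 0 of the 4 counted for FZD5 were nearest to FZD5.

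The number of peaks in the surrounding 10 Mb also differed between the lists. The ratio of 293T to J76 peaks there had a median of 1.19 over all genes and 1.12 over the 33 members. It was 3.25 around WNT16, 3.01 around WNT2, 2.13 around FZD5, 2.02 around FZD4 and 1.43 around RYK. Around FZD1, WNT3A, WNT9A, FZD7, WNT6 and WNT10A, also members with an excess of 293T-only peaks, it ran between 1.62 and 1.73. Around the rest of them it was near or below 1, at 1.099 for LRP6, 1.01 for WNT5A, 0.924 for FZD3 and 0.917 for WNT5B. Its part in the counts of these genes was not tested.

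**Figure D4:**
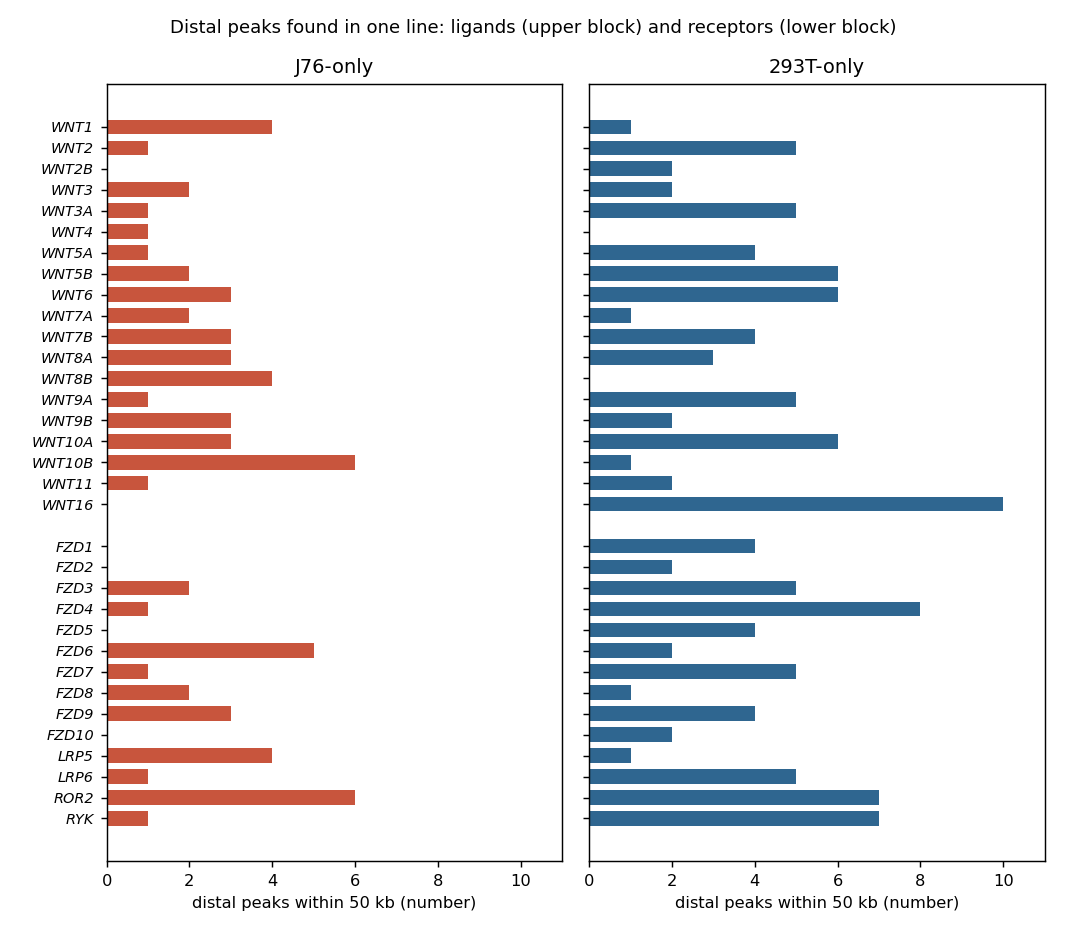
Bars give the number of distal line-only peaks inside each member or within 50 kb of it, J76-only left and 293T-only right. WNT10B and ROR2 have the longest J76 bars with 6 each, and WNT16 the longest 293T bar with 10.

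Another 58 genes of the pathway were set beside the members. At gene ends 42 had a peak in both lines (72.4%, background 60.7%), 1 in J76 only (background 3.94%), 11 in 293T only (18.97%, background 9.09%) and 4 in neither. The cytoplasmic relay had peaks in both lines at 9 of 9 genes, led by DVL3 with fold 10.8 in J76 and 8.05 in 293T and AXIN1 with 8.67 in J76 and 7.83 in 293T. Nuclear factors had them at 9 of 10, led by PYGO1 with 8.93 in J76 and 9.09 in 293T and BCL9 with 9.06 in J76 and 5.75 in 293T. TCF7, the nuclear factor of T cells, had one in neither line at its gene ends, but at its start both lines had one, of fold 7.92 in J76 and 8.97 in 293T. Of the planar polarity genes 6 of 7 had peaks in both lines, led by CELSR3 with 9.38 in J76 and 9.20 in 293T and PRICKLE1 with 8.16 in J76 and 4.96 in 293T, and PRICKLE2 had one in 293T only, of fold 5.61. The receptor kinases ROR1 and PTK7 had them in both lines, ROR1 with 8.40 in J76 and 6.65 in 293T and PTK7 with 7.68 in J76 and 6.68 in 293T.

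Of the 11 genes called in 293T only, 9 encode ligand release factors, secreted regulators or their receptors. PORCN, the enzyme that attaches the lipid to WNT proteins, had peaks in both lines, of fold 14.9 in J76 and 11.8 in 293T, while WLS, which carries the ligands to the surface, had one in 293T only, of fold 5.13. Of 14 secreted inhibitors and their receptors, 8 had a peak in both lines, led by KREMEN1 with 13.0 in J76 and 9.51 in 293T and DKK4 with 10.6 in J76 and 9.29 in 293T. SFRP1, DKK1, DKK2 and NOTUM had one in 293T only, with folds of 7.27, 6.81, 5.25 and 3.55, and SFRP2 and SOST had none. Among the R-spondins, their LGR receptors and the ligases RNF43 and ZNRF3, which remove Frizzled receptors from the surface, 4 of 9 had peaks in both lines. RNF43 led with 13.3 in J76 and 12.3 in 293T, ahead of ZNRF3 with 10.2 in J76 and 7.32 in 293T. RSPO1, RSPO2, LGR4 and LGR6 had one in 293T only, with folds of 5.01, 7.80, 5.70 and 4.62, and RSPO4 in neither. Of 5 target genes, NKD1 with 9.29 in J76 and 10.8 in 293T and AXIN2 with 6.43 in J76 and 5.72 in 293T led the 3 with peaks in both. SP5 had one in J76 only, of fold 3.93, and TNFRSF19 in 293T only, of fold 9.91. Another protein-coding gene ends within 2 kb of PORCN, DKK4, KREMEN1, ZNRF3, RNF43, PTK7, DVL3, AXIN1 and CELSR3, and peaks were not assigned between such neighbours.

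**Figure D5:**
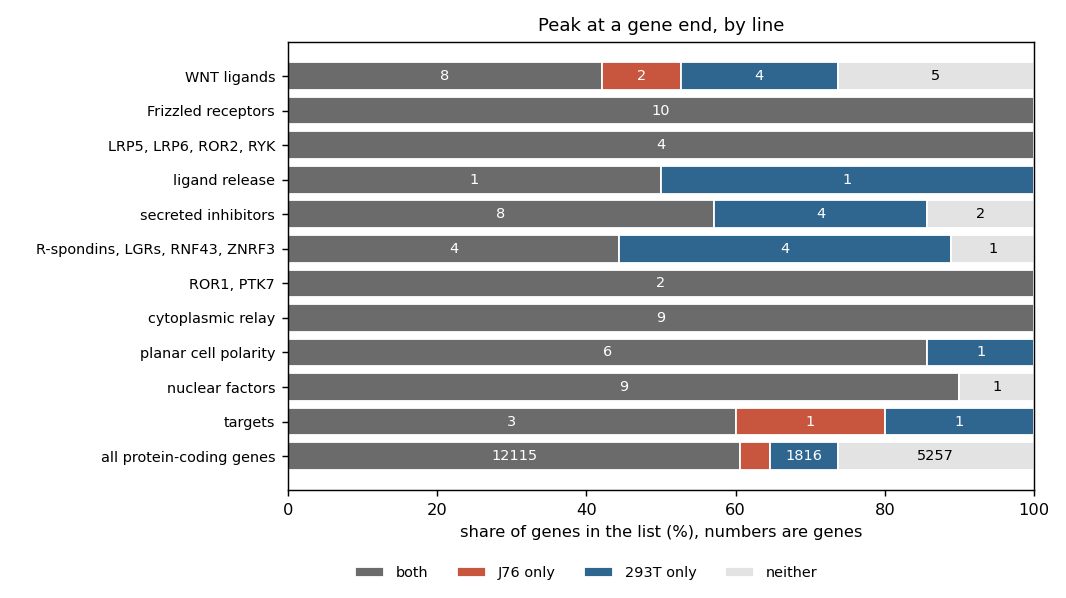
Each bar splits a list of genes by the line in which they had a peak at a gene end (share of the list in %, numbers are genes). Receptors (10 Frizzled and 4 others) and the 9 relay genes have peaks in both lines in full, while 8 of 19 ligands, 8 of 14 secreted inhibitors and 4 of 9 genes of the R-spondin and LGR list do.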

How the data were processed

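ATAC-seq was performed on J76 and 293T cells, 1 library each. The authors deposited 1 narrowPeak list per library, holding for every peak an integer score, the fold enrichment at the summit as a linear ratio, and a p-value and q-value as −log10. Bowtie2 and MACS2 are named per the submitters' processing notes, with versions, settings, duplicate removal, cut-position shift and genome build not given in the sources used here. Contig names are those of GRCh38, and positions are printed as GRCh38, counted from 1.

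Genes, promoters and sequences came from RefSeq tables of GRCh38.p14 (24 of 33 members had a promoter entry). J76 had 901 and 293T 646 peaks on chromosome Y or unplaced contigs, which were left out. Intervals on shares are 95% Wilson intervals. Genes were named by rule: every member with a peak at a gene end in 1 line only, up to 4 per class with one in both lines by highest fold, every member whose distal line-only peaks differed by 3 or more, and pathway genes with a peak in 1 line only or, per list, up to 2 in both. Others were chosen after their values were seen. Members and lists were chosen with earlier results of these data known. The counting was tested on simulated peaks. Alternatives covered the −log10 q threshold, list length, window, overlap and distance. Python 3.11.15, pandas 2.3.3, numpy 2.4.6, scipy 1.17.1 and matplotlib 3.10.9 were used.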

Additional observations from a re-analysis of the deposited data

How the results depend on the processing

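The count of 14 receptors with a gene-end peak in both lines was the same at a −log10 q of at least 5 or 10, with lists of equal length and with windows of 500 bp or 2.5 kb. Ligands in J76 only fell to 1 at a −log10 q of at least 5 or 10, and ligands in 293T only to 2 with the 2.5 kb window, where WNT3A and WNT11 had peaks in both lines. At a −log10 q of at least 10, 1 receptor, LRP5, had a start peak in J76 only. At that threshold WNT2 lost its 293T-only calls. At 5 the WNT5A start became 293T-only within the 1 kb window. WNT16 lost its start call with the 500 bp window and with the summit inside the window. Distal J76-only and 293T-only peaks near receptors numbered 16 and 35 at a −log10 q of at least 5, and 8 and 21 at 10. Near ligands they numbered 15 and 28 at 10. With lists of equal length 293T-only peaks numbered 35 near ligands and 28 near receptors. Within 25 kb there were 21 J76-only peaks near ligands, and 17 and 31 near receptors. Of the named members' values 165 stayed and 59 moved, 49 of them distal counts, and 0 reversed. The cause was not tested, beyond that stricter thresholds, shorter lists and narrower distances hold fewer peaks. Depth is unknown, so weak peaks such as that of WNT3 are the least certain. No paired analysis was possible because each line had 1 library.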

Other observations

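Distal peaks near the other pathway genes were uneven, and the genes named here were chosen after their values were seen. ROR1, a receptor kinase of the polarity branch, had peaks of both lines at its gene ends. Inside the gene or within 50 kb of it, 2 distal peaks were J76-only and 43 were 293T-only. By the excess of 293T-only peaks it ranked 16 among the 19974 genes, without adjustment for gene length. WLS had 0 J76-only and 18 293T-only peaks, LGR4 had 2 and 13, and LGR5 had 3 and 13. The ratio of 293T to J76 peaks in the surrounding 10 Mb was 4.01 for ROR1 and 4.44 for WLS, with a median of 1.19 over all genes, and its part in these counts was not tested. In the other direction, TCF7 had 7 J76-only and 1 293T-only distal peaks, and VANGL1, a planar polarity gene, had 8 and 2. Over all 58 genes, 19 had more J76-only distal peaks (background 30.3%), 36 had more 293T-only (background 49.8%), and 3 had equal numbers.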
